A study of Rattus norvegicus with 111 samples.

Results

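Fetal livers from 4 rat dams dosed with 62.5 mg/kg/d PFO4DA, the highest dose given of that chemical, were set against fetal livers from 6 vehicle-dosed dams. These were 10 of the 30 fetal libraries of the PFO4DA table and 10 of the 111 libraries of the series, which came from 56 dams. Column names in the table gave the dam but not the life stage, so the fetal libraries were chosen by their expression. Of a dam's 2 libraries, the one with the higher Pearson correlation with the only library of a dam that had a maternal liver alone (dam 2286, at 30 mg/kg/d PFO5DoA) was taken as maternal, and the other as fetal. The values that chose the stage were those of all genes in each library, so differences in level between fetal and maternal liver within the PFO4DA dams are descriptions with no test. The rule did not use the dose, and the contrast of 62.5 against 0 mg/kg/d is tested below.

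The study exposed time-mated Sprague-Dawley dams (Crl:CD(SD), about 11 to 12 weeks old) by mouth on gestational days 18 to 22 and compared dose responses of maternal and fetal liver. Dams at 62.5 mg/kg/d (2319, 2320, 2321 and 2322) received PFO4DA, and control dams (2293, 2294, 2295, 2308, 2309 and 2310) received 0 mg/kg/d, both groups being labelled with the vehicle 0.5% Tween-80. Livers were taken 2 to 4 hours after the last dose. Each dam gave 1 fetal library, and the labels used here do not say how many fetuses it held, so n counts dams.

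PFO4DA is a perfluoroalkyl ether carboxylic acid, a fluorinated chain interrupted by ether oxygens that ends in an acid group. Many acids of this kind resemble fatty acids, and as background they are known in rodent liver for activating PPARα, a nuclear receptor that raises the expression of genes for fatty acid oxidation. The fetal rat liver late in gestation still forms blood cells while its hepatocytes take up metabolic functions used after birth. TempO-Seq, the assay used, ligates pairs of probes on each target RNA and counts the ligated products. Genes were listed by Ensembl ID alone, and the reference tables used here named 0 of the 20311, so genes are described as groups that rose or fell, with 4 IDs followed through every comparison. The liver label could not be checked against cell type markers for the same reason.

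The 2 stages separated clearly by the rule. In the PFO4DA table, the 30 libraries taken as fetal had correlations of 0.872 to 0.918 with the dam 2286 library, and the 30 taken as maternal had 0.955 to 0.978. The closest call within any PFO4DA dam had a margin of 0.053, and among the dams at 62.5 and 0 mg/kg/d the smallest margins were 0.0613 and 0.0595. Pairs of fetal libraries correlated at 0.965 to 0.993, and fetal with maternal ones at 0.875 to 0.928. Total counts were 7962454 to 11762983 in the 62.5 mg/kg/d fetal libraries and 8828966 to 11015792 in the control ones. Between 13928 and 15463 genes had counts at 62.5 mg/kg/d, with the highest number in dam 2321 and at most 14485 in the others, and between 14199 and 16184 in the controls, where dam 2308 held the highest number and the others reached at most 14554. All 62.5 mg/kg/d dams fall in the later part of this table's column order, where the doses start again from 0 mg/kg/d at dam 2308. That part, here called the second run of dam numbers, holds 3 of the 6 control dams (2308, 2309 and 2310). The split is read from the column order, and the column names do not mark it as a batch.

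At 62.5 mg/kg/d, 526 genes rose and 662 genes fell in fetal liver, out of 11172 genes tested. The rises were 4.71% and the falls 5.93% of the genes tested, 10.6% in all (edgeR's quasi-likelihood test, Benjamini-Hochberg adjusted p under 0.05; 2478 genes had an unadjusted p under 0.05). On the log2 scale the median fold change was 0.97 for rises and -0.89 for falls, while the median over all genes tested was -0.011. A change of 2-fold or more was seen in 252 of the rises and 273 of the falls. Past 4-fold the rises were more numerous, with 97 against 64 falls, and past 8-fold there were 47 rises and 16 falls. The smallest change that passed was 0.30 on the log2 scale. Because these are bulk livers, fewer cells of a type and less RNA per cell cannot be told apart in any fall. When only the libraries at 62.5 and 0 mg/kg/d were fitted, 458 genes rose and 571 fell, a total of 1029. Within that smaller fit, using the 3 control dams of the same run of dam numbers gave 353 rises and 346 falls, a total of 699. Using the other 3 control dams, a choice made after the data were seen, gave 307 rises and 459 falls, a total of 766.

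**Figure D1:**
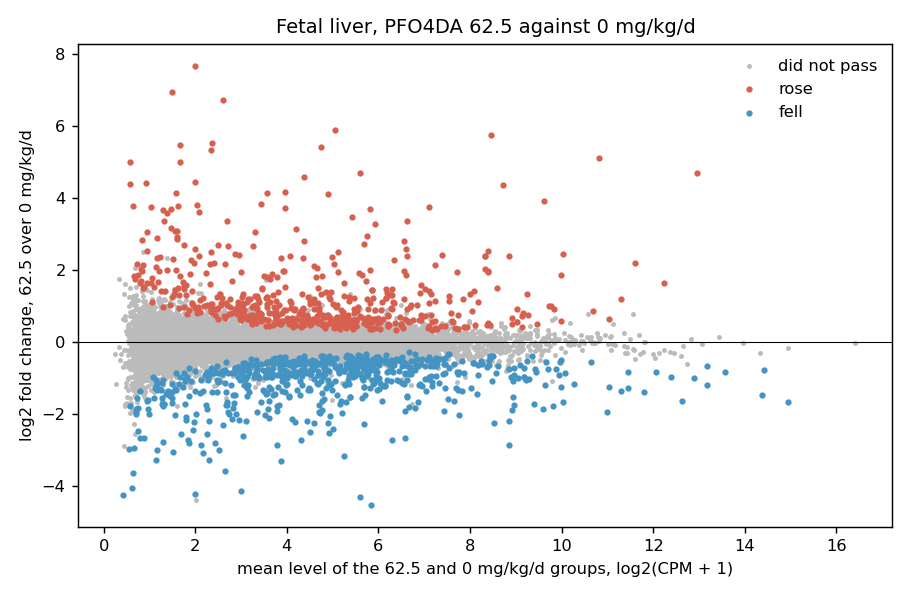
Log2 fold change in fetal liver (62.5 over 0 mg/kg/d PFO4DA, vertical axis) against the mean level of both groups, as log2(CPM + 1) (horizontal axis), with 1 point for each of the 11172 genes tested. The 526 genes that rose are red, the 662 that fell are blue and the others are grey. The largest rises reach further from 0 than the largest falls, and at the highest levels falls outnumber rises.

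The groups separated completely for many of these genes. All 4 libraries at 62.5 mg/kg/d lay above all 6 controls in 556 genes (4.98% of those tested) and below all of them in 585 genes (5.24%). Of the genes that passed the test, 395 of the 526 rises and 472 of the 662 falls had groups that did not overlap. The share of genes that passed is given here for 3 classes of level. Below a mean of 5 CPM (counts scaled to a fixed library total), 116 of 3693 genes rose and 100 fell, 5.85% in all. Between 5 and 50 CPM, 265 of 5356 genes rose and 328 fell, 11.1% in all. Above 50 CPM, 145 of 2123 genes rose and 234 fell, 17.9% in all. Counting error is larger at low levels, so the shares of the level classes are not on an equal footing.

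A sizeable share of the fetal liver's counts shifted. Since ligated probes are counted, the shares are of counts and not of RNA. The 662 genes that fell took 12.9 to 14.8% of the counts of the 4 libraries at 62.5 mg/kg/d and 23.2 to 31.4% of the counts of the 6 controls. The 526 genes that rose took 7.7 to 10.5% of the counts at 62.5 mg/kg/d and 2.81 to 3.12% in the controls. Neither pair of ranges overlapped, but these genes were chosen by the same libraries, so the shares describe the size of the shift and do not test it. The lowest share of the rises at 62.5 mg/kg/d belonged to dam 2320, at 7.7%, and the other 3 dams were at 10.2 to 10.5%. Few genes carried most of the shift. In summed mean levels the falls stood at 125185 CPM at 62.5 mg/kg/d against 274550 CPM in the controls, and the 10 genes with the largest loss made up 68.1% of that difference. The summed level of the rises was 87365 CPM at 62.5 mg/kg/d and 30560 CPM in the controls, and the 10 genes with the largest gain made up 61.5% of that difference.

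The 4 example genes were the 2 largest rises and the 2 largest falls among 1028 genes (444 rises and 584 falls) that passed the test, reached a mean of 5 CPM in either group and had the control mean below all, or above all, of the 62.5 mg/kg/d libraries. Levels are CPM scaled by TMM, a method that corrects library totals for a few strongly changed genes. ENSRNOG00000017716 had 5.39, 3.67, 6.91 and 7.93 CPM in the fetal livers of dams 2319, 2320, 2321 and 2322, and in the controls a single count in 1 of 6 libraries (dam 2308). The gene was thus barely measurable in control fetal liver and present in every litter at 62.5 mg/kg/d. In all it had 245 counts at 62.5 mg/kg/d and 1 count in the controls. The ratio per total count was 391, with an exact 95% interval of 69.5 to 15511 that covers counting error only. The gene's change passed the test (edgeR, adjusted p = 1.6e-08), while the rule for examples itself required all 4 libraries to lie above the control mean.

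ENSRNOG00000009522 had 7.38, 9.95, 10.3 and 12.8 CPM at 62.5 mg/kg/d, and 0 to 0.209 CPM (median 0.0995) in the 6 controls. The groups did not overlap, and every library at 62.5 mg/kg/d was far above the highest control. The mean was 10.1 ± 2.21 CPM at 62.5 mg/kg/d (SD, n = 4) and 0.0864 ± 0.0787 CPM in the controls (SD, n = 6), giving a log2 fold change of 6.71 (SE 0.47; edgeR, adjusted p = 1e-11). Its 5 control counts in all make the size of this fold uncertain.

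For a fall, the rule for examples in effect required a mean of at least 5 CPM in control fetal liver. The 2 largest falls had control means well above that floor. ENSRNOG00000004009 had 6.24, 2.86, 5.37 and 4.26 CPM at 62.5 mg/kg/d, and 40.5 to 219.7 CPM (median 101) in the 6 controls. The controls differed among themselves by several fold, yet the lowest of them stood well above the highest library at 62.5 mg/kg/d. The mean was 4.68 ± 1.46 CPM at 62.5 mg/kg/d (SD, n = 4) and 108 ± 67.5 CPM in the controls (SD, n = 6), giving a log2 fold change of -4.53 (SE 0.46; edgeR, adjusted p = 4.62e-08). ENSRNOG00000036984 had 6.24, 3.43, 4.50 and 3.96 CPM at 62.5 mg/kg/d, and 64.2 to 152.3 CPM (median 71.2) in the controls. Its groups did not overlap either. The mean was 4.53 ± 1.22 CPM at 62.5 mg/kg/d (SD, n = 4) and 90.7 ± 36.7 CPM in the controls (SD, n = 6), giving a log2 fold change of -4.32 (SE 0.39; edgeR, adjusted p = 4.36e-09).

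Beyond these examples, the 10 largest rises by the same rule had log2 fold changes of 4.69 to 7.67 and the 10 largest falls of -4.53 to -3.01. Mean levels of the 10 rises spanned 5.97 to 15420 CPM at 62.5 mg/kg/d and 0.0157 to 599 CPM in the controls, so the group holds both genes hardly detected in controls and genes already expressed there. Mean levels of the 10 falls spanned 0.296 to 7.40 CPM at 62.5 mg/kg/d and 5.63 to 108 CPM in the controls. The 5 CPM floor of the rule bounds the low end of the higher group in both lists.

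The lower doses show how the change at the top of the range was approached. In the same edgeR fit, no gene passed at the doses of 0.3 and 1 mg/kg/d (0 calls each), for which 1125 and 876 genes had an unadjusted p under 0.05. The dose of 3 mg/kg/d gave 33 rises and 1 fall. The counts were 218 rises and 77 falls at 10 mg/kg/d, followed by 366 rises and 353 falls at 30 mg/kg/d. Falls were thus few among the calls at 3 mg/kg/d and nearly as many as rises at 30 mg/kg/d. The 526 rises had median log2 fold changes of 0.07, 0.19, 0.34, 0.59 and 0.82 at 0.3, 1, 3, 10 and 30 mg/kg/d, and the 662 falls had medians of 0.05, -0.06, -0.10, -0.32 and -0.60. All these comparisons share their control libraries with that of 62.5 mg/kg/d, so their values are set side by side and the likeness between them is not a test. The median over all genes tested stayed between -0.012 and 0.009 at these doses.

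**Figure D2:**
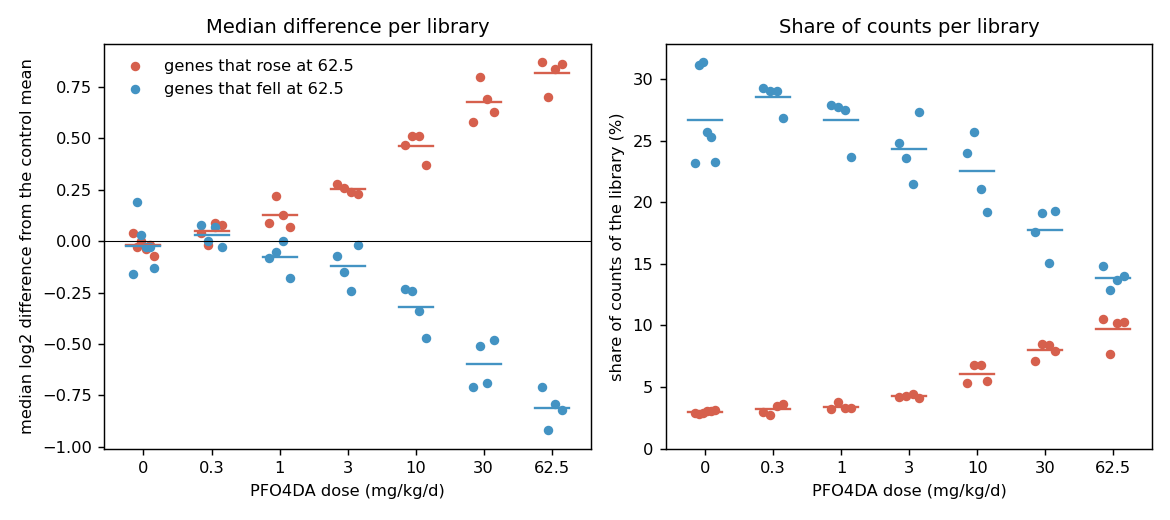
Each of the 30 fetal libraries by PFO4DA dose (horizontal axis, mg/kg/d) for the 526 rises (red) and the 662 falls (blue). Left, the median log2 difference from the control mean, and right, the share of the library's counts in percent, with bars at the group mean. At 62.5 mg/kg/d the medians of the 4 libraries lie at 0.70 to 0.87 for the rises and -0.92 to -0.71 for the falls.

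The same genes were looked at in single libraries. They were chosen on the libraries at 62.5 and 0 mg/kg/d, so their directions at 62.5 mg/kg/d follow in part from the choice. At 62.5 mg/kg/d the median log2 difference from the control mean was 0.87, 0.70, 0.84 and 0.86 over the genes that rose and -0.71, -0.92, -0.79 and -0.82 over the genes that fell, for dams 2319, 2320, 2321 and 2322. At 30 mg/kg/d it was 0.58 to 0.80 for the rises and -0.71 to -0.48 for the falls. The ranges of both doses thus overlapped for the rises and met at -0.71 for the falls. Dam 2320 had the smallest median rise and the largest median fall of its group. In a principal component analysis of the 30 fetal libraries, the second component (19% of the variance) held the 4 libraries at 62.5 mg/kg/d between -29.86 and -10.03 and the controls between -0.9 and 40.09, with no overlap. The first component (23.1%) held them between 10.46 and 36.89, and the controls between -28.29 and 24.48, so it did not separate the groups.

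The example genes differed in the dose at which they first passed the test. Both falls had passed by 10 mg/kg/d. ENSRNOG00000004009 was at 37.5 ± 12.2 CPM there (SD, n = 4; edgeR, adjusted p = 0.0244), while 30 mg/kg/d gave 9.67 ± 3.80 CPM (SD, n = 4; edgeR, adjusted p = 2.16e-06). ENSRNOG00000036984 was at 34.3 ± 12.0 CPM at 10 mg/kg/d (SD, n = 4; edgeR, adjusted p = 0.0141), while 30 mg/kg/d gave 13.3 ± 7.07 CPM (SD, n = 4; edgeR, adjusted p = 3.33e-06). Both rises passed first at 30 mg/kg/d. ENSRNOG00000017716 had 1 count over the 4 libraries at 10 mg/kg/d and 0.702 to 3.03 CPM at 30 mg/kg/d (edgeR, adjusted p = 2.3e-05). ENSRNOG00000009522 was at 0.284 ± 0.227 CPM at 10 mg/kg/d (SD, n = 4; edgeR, adjusted p = 0.266), while 30 mg/kg/d gave 2.30 ± 0.952 CPM (SD, n = 4; edgeR, adjusted p = 2.82e-07).

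**Figure D3:**
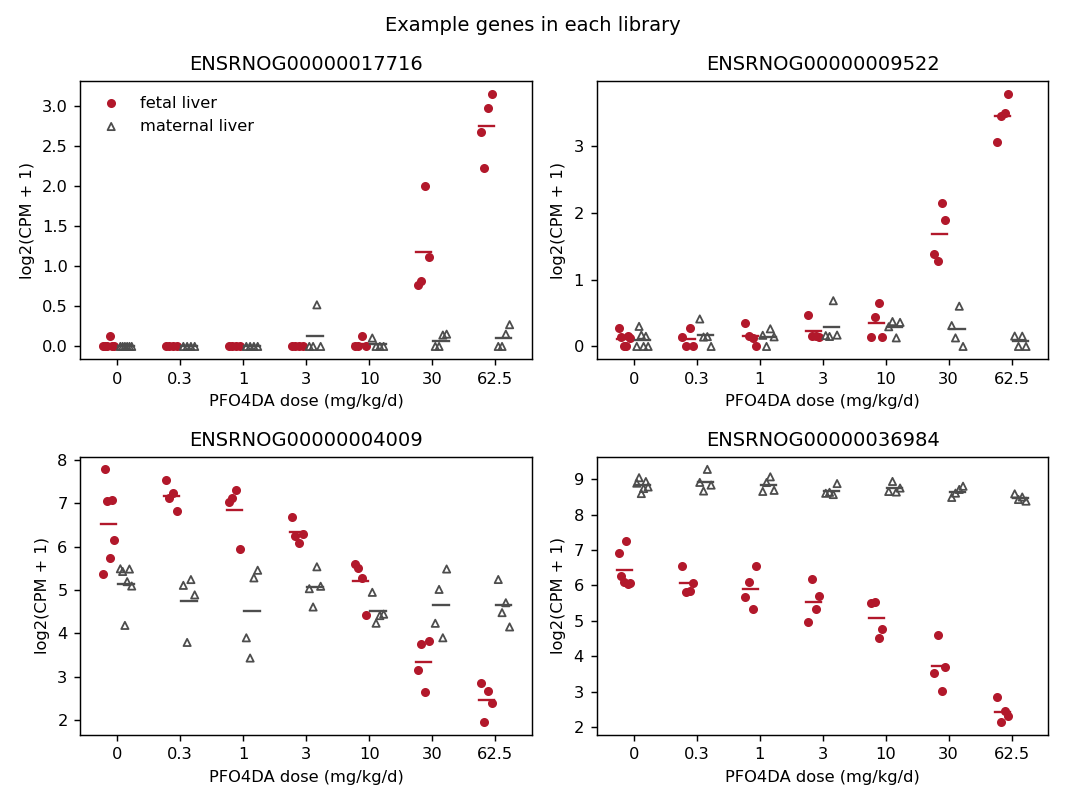
Level of the 4 example genes as log2(CPM + 1) in each library by PFO4DA dose (mg/kg/d), with fetal livers as filled red circles, maternal livers as open grey triangles and bars at the group mean. The rises (upper panels) appear in fetal livers from 30 mg/kg/d and reach 3.67 to 7.93 CPM and 7.38 to 12.8 CPM at 62.5 mg/kg/d. The falls (lower panels) lie at 2.86 to 6.24 CPM and 3.43 to 6.24 CPM in fetal liver at 62.5 mg/kg/d, below all control fetal livers.

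Gene by gene, hardly any difference between the 2 highest doses passed the test. The contrast of 62.5 with 30 mg/kg/d called 1 of 11172 genes, or 0.00895% (edgeR; 402 genes had an unadjusted p under 0.05). This gene was ENSRNOG00000009522, at 10.1 CPM against 2.30 CPM, giving a log2 fold change of 2.13 (SE 0.37; edgeR, adjusted p = 0.0256; higher in 4 of 4 libraries). The call was lost without the 62.5 mg/kg/d library of dam 2320, 2321 or 2322, or without the 30 mg/kg/d library of dam 2306, 2307 or 2318, each leaving 0 genes, and there were 5 genes without dam 2319 (62.5 mg/kg/d) and 2 without dam 2317 (30 mg/kg/d). The genes that had risen against the controls had a median log2 fold change of 0.17 between 62.5 and 30 mg/kg/d, those that had fallen had -0.26, and all genes tested had 0.000. Both groups were chosen on the same 62.5 mg/kg/d libraries, so these directions follow in part from the choice. The log2 difference was 2.07 for ENSRNOG00000017716 (95% interval 1.23 to 2.92), -1.05 for ENSRNOG00000004009 (-1.93 to -0.18) and -1.56 for ENSRNOG00000036984 (-2.31 to -0.81). None of these 3 passed the adjusted test, so the data do not settle whether they moved further between these doses.

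In the maternal livers of the same dams fewer genes passed the test. In maternal liver 185 genes rose and 67 fell at 62.5 mg/kg/d, or 1.8% and 0.653% of 10263 genes tested. Among the 9874 genes tested in both livers, 104 rose in both, which is 22.3% of the 467 fetal rises and 57.1% of the 182 maternal rises tested in both. Another 17 fell in both, or 2.79% of the 610 fetal falls and 26.2% of the 65 maternal falls. No gene rose in fetal and fell in maternal liver, and 1 fell in fetal and rose in maternal liver. The fetal rises had a median log2 fold change of 0.33 in maternal liver, the fetal falls had -0.13, and all genes had 0.001. A gene past the threshold in a single liver is not thereby shown to differ between the livers, which was tested next.

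The change differed between the livers in 348 of 11017 genes, in a fit with the dam as a block (edgeR, interaction term by the quasi-likelihood test; 1682 genes had an unadjusted p under 0.05). In 120 genes (1.09%) the fetal change lay above the maternal one, and in 228 genes (2.07%) below it. These differences were at least 4-fold in 35 and 40 genes. Of the 119 genes with a higher fetal change that were also tested in fetal liver alone, 92 rose in fetal liver, 5 fell in maternal liver and 22 did neither. In maternal liver 110 of the 119 were tested, and the others count there as unchanged. The median log2 fold change was 1.33 in fetal liver (119 genes) and -0.18 in maternal liver (110 genes). Of 223 genes with a lower fetal change, 177 fell in fetal liver, 17 rose in maternal liver, 1 did both and 30 did neither, where each of the first 2 counts includes the gene that did both. In maternal liver 218 of the 223 were tested, and the others count there as unchanged. The medians were -1.17 in fetal liver (223 genes) and 0.16 in maternal liver (218 genes). Both sets were chosen for a difference between these same livers, so the gaps between medians follow in part from the choice. With no filter on low counts the count was 679, with 308 above and 371 below. Without dam 2321 it was 195 (59 above and 136 below). Without dams 2308 and 2321, the dams whose fetal libraries listed the most genes in their groups, it was 194 (61 above and 133 below), a choice made after the data were seen.

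**Figure D4:**
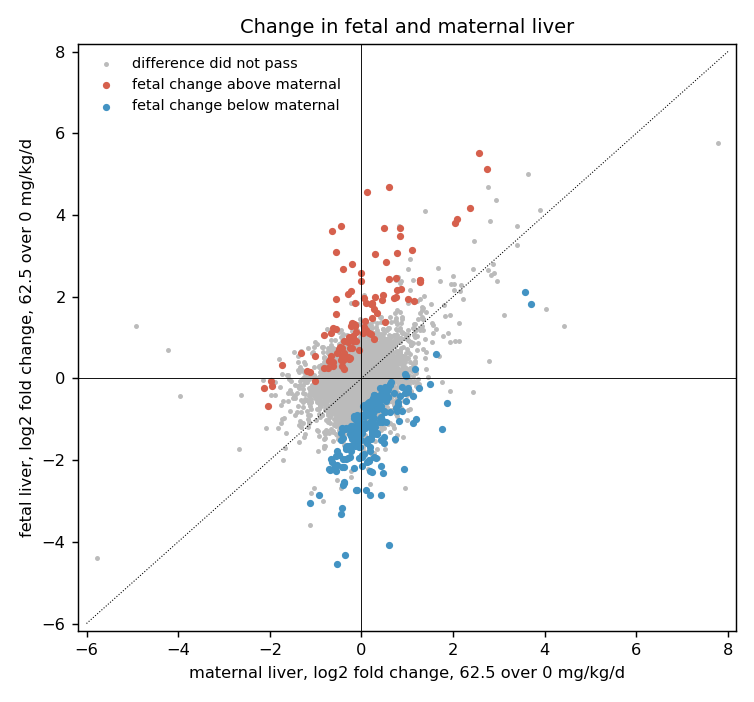
Log2 fold change at 62.5 over 0 mg/kg/d PFO4DA in fetal liver (vertical axis) against maternal liver (horizontal axis) for 9842 genes tested in each liver and in the fit of their difference. Red and blue points are the 328 genes drawn whose change differed between the livers, and the dotted line marks equal change. Most of the coloured points lie near 0 on the maternal axis and away from 0 on the fetal axis. They were chosen for a difference between these livers, so their distance from the dotted line follows in part from the choice.

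In all, 3 of the example genes differed between the livers by this test. The examples were chosen for large changes in the same fetal libraries, so the sizes of these differences follow in part from the choice. For ENSRNOG00000036984 the maternal level was 354 ± 22.2 CPM at 62.5 mg/kg/d (SD, n = 4) and 455 ± 49.7 CPM in the controls (SD, n = 6), a difference that did not pass in maternal liver (edgeR, adjusted p = 0.132). The fetal log2 change minus the maternal one was -3.90 (95% interval -4.45 to -3.34; edgeR, adjusted p = 9.82e-07). For ENSRNOG00000004009 the maternal level was 25.0 ± 8.62 CPM at 62.5 mg/kg/d (SD, n = 4) and 35.9 ± 10.2 CPM in the controls (SD, n = 6; edgeR, adjusted p = 0.588). The fetal log2 change minus the maternal one was -3.82 (interval -4.94 to -2.70; edgeR, adjusted p = 0.00426). ENSRNOG00000009522 was near 0 in maternal liver, with 2 counts over 4 libraries at 62.5 mg/kg/d and 4 counts over 6 control libraries, and its fetal log2 change minus the maternal one was 6.97 (interval 4.01 to 9.93; edgeR, adjusted p = 0.0178). ENSRNOG00000017716 had 3 maternal counts at 62.5 mg/kg/d and 0 in the controls, too few for a difference to be fitted with any precision (edgeR, adjusted p = 0.966).

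How the responding genes divide by life stage was described with dams that the comparison did not use, the 5 control dams of PFO5DoA that had 2 full libraries. The levels in these dams are independent of the PFO4DA doses, but their stage was set by the same rule, so the classes are given with no test. Folds between the livers of these dams are from the mean within-dam difference of log2(CPM + 1). The added 1 shrinks differences at low levels, so a gene classed under 2-fold can differ by more than 2-fold in CPM. Of the 526 rises, 123 (23.4%) were at least 2-fold higher in maternal liver and 58 (11%) at least 2-fold higher in fetal liver. Of the 662 falls, 146 (22.1%) were at least 2-fold higher in maternal and 127 (19.2%) at least 2-fold higher in fetal liver. Among all genes tested the shares were 11.3% (1267 genes) and 15.3% (1706 genes). Genes higher in maternal liver thus made up a larger share of both responding groups than of all genes tested. Genes higher in fetal liver made up a smaller share of the rises and a larger share of the falls. The share of genes that passed also varied with level (5.85% under 5 CPM, 17.9% over 50 CPM), and these classes were not matched for level. The falls held 29 genes (4.38%) at least 8-fold higher in fetal liver, against 2.37% of all genes tested, and the rises held 5 (0.951%).

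**Figure D5:**
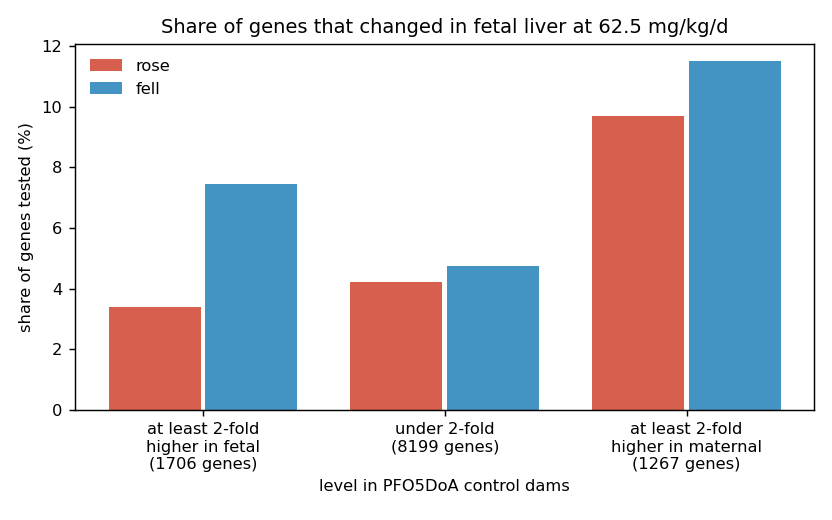
Share of genes tested (vertical axis, %) that rose (red) or fell (blue) in fetal liver at 62.5 mg/kg/d PFO4DA, for genes grouped by their level in 5 PFO5DoA control dams (horizontal axis). Classes are by the difference of log2(CPM + 1). In genes higher in fetal liver 3.4% rose and 7.44% fell, and in genes higher in maternal liver 9.71% rose and 11.5% fell. In genes under 2-fold on that scale 4.21% rose and 4.74% fell. The classes were not matched for level.

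As whole classes these genes had medians near 0. The median log2 fold change at 62.5 mg/kg/d was 0.03 over the 1706 genes higher in fetal liver, -0.08 over the 1267 genes higher in maternal liver and -0.01 over the 8199 others. Of the 10 largest rises, 1 was at least 2-fold higher in fetal and 3 were at least 2-fold higher in maternal liver. Of the 10 largest falls, 6 and 3 were. A fall entered that list only with at least 5 CPM in PFO4DA control fetal liver, so its split follows in part from the rule. The 2 largest falls stood on opposite sides. ENSRNOG00000004009 had a mean of 84.3 CPM in fetal and 32.9 CPM in maternal livers of the PFO5DoA control dams. ENSRNOG00000036984 had 61.7 CPM in fetal and 555 CPM in maternal livers. These levels were scaled over both livers of those dams, so they differ from the fetal PFO5DoA levels given below, which were scaled over fetal libraries.

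The other chemical of the series gave a second set of fetal livers with their own controls. PFO5DoA is the longer homologue, its chain being longer by a difluoromethoxy unit, and the highest doses analysed were lower than 62.5 mg/kg/d, so the values are set side by side without a test of the chemicals. In fetal livers at 10 mg/kg/d PFO5DoA (4 dams against 5 control dams), 806 genes rose (7%) and 884 fell (7.68%) of 11509 tested. Of the genes tested for both chemicals, 368 rose in both, which is 70.1% of the 525 PFO4DA rises and 47.9% of the 769 PFO5DoA rises. Likewise 454 fell in both, or 69% of the 658 PFO4DA falls and 51.7% of the 878 PFO5DoA falls, and 1 gene went opposite ways. At 30 mg/kg/d PFO5DoA (3 dams), where dams ended lighter than their controls per the labels, 1590 genes rose (13.8%) and 1853 fell (16.1%). Of the PFO4DA rises, 291 (55.4%) also rose there, which is 19% of the 1530 PFO5DoA rises, and 22 fell. Of the PFO4DA falls, 456 (69.3%) also fell, which is 24.8% of the 1841 PFO5DoA falls, and 13 rose. The genes that rose with PFO4DA had median log2 fold changes of 0.95 at 10 and 0.74 at 30 mg/kg/d PFO5DoA, and those that fell had -0.92 and -1.13.

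The example genes were followed in these livers as well. ENSRNOG00000004009 had 1.32 to 2.66 CPM in the 4 fetal libraries at 10 mg/kg/d PFO5DoA, 0.508 to 1.34 CPM in the 3 at 30 mg/kg/d, and 75 to 146 CPM in the 5 controls. Its log2 fold change was -5.61 for the lower of these doses (edgeR, adjusted p = 3.19e-10). For the higher dose it was -6.71 (edgeR, adjusted p = 4.56e-10). ENSRNOG00000036984 had 1.79 to 2.61 CPM at 10 mg/kg/d, 1.86 to 3.01 CPM at 30 mg/kg/d and 39.9 to 102 CPM in the controls, so its level was about the same at both doses. Both falls thus had groups that did not overlap for either chemical. ENSRNOG00000017716 had 4.3, 4.84, 12.8 and 0.155 CPM in the 10 mg/kg/d livers and no counts in the 5 controls (edgeR, adjusted p = 0.000833). The livers of 30 mg/kg/d held 0.167, 0.847 and 0.57 CPM of it, short of the threshold (edgeR, adjusted p = 0.0582). ENSRNOG00000009522 had 13.9 to 25.4 CPM at 10 mg/kg/d and 5.38 to 12 CPM at 30 mg/kg/d, against 1.58 to 7.33 CPM in the PFO5DoA controls. These PFO5DoA controls stood far above the PFO4DA controls for this gene, in which no library passed 0.209 CPM, although both groups were at 0 mg/kg/d. The tables were scaled separately. Before scaling, this gene had 17 to 83 counts in the PFO5DoA fetal controls and 0 to 2 in the PFO4DA fetal controls. In control maternal livers its mean was 3.90 CPM for PFO5DoA, scaled over both livers of the control dams. For PFO4DA it was 0.0779 CPM, scaled over maternal livers of all doses. The source of this difference between tables was not tested. The difference bears on the size of this gene's fold change, which on the log2 scale was 2.13 at 10 mg/kg/d PFO5DoA (edgeR, adjusted p = 9.78e-05). For 30 mg/kg/d PFO5DoA it was 0.97 (edgeR, adjusted p = 0.0463), beside 6.71 for 62.5 mg/kg/d PFO4DA.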

How the data were processed

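Liver RNA was measured by TempO-Seq with 22253 probes for 20924 genes, per the labels' protocols. The authors deposited estimated counts without normalization. The PFO4DA table lists 20311 genes, and 11.8% of its values have decimals, so the deposited counts were rounded before testing. Per the submitters' processing notes, the build was mRatBN7.2 and the tools included STAR 2.7.8a, Partek and DESeq2, with no step given for each. Columns were mapped to dams through the labels, and all were mapped.

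The 30 fetal libraries of PFO4DA (7 doses) were fitted together with edgeR 4.0.16 in R 4.3.3 (TMM, filterByExpr by dose, robust quasi-likelihood, Benjamini-Hochberg). The fetal minus maternal change used both livers of the 10 dams at 62.5 and 0 mg/kg/d. The standard error of a log2 fold change was taken as its absolute value over the square root of the test's F statistic. Intervals of log2 differences are 1.96 of these standard errors to each side, with no allowance for the small number of dams. Fetal PFO5DoA libraries were fitted on their own, without the 0.1 mg/kg/d dams and 1 control library of under 1e+06 counts. Libraries of one group differed by more than sampling noise (lowest chi-square per degree of freedom 14.7). The fit of 62.5 against 0 mg/kg/d in fetal liver and the fit of the fetal minus maternal change were tested on simulated counts. All simulated libraries shared the gene proportions of control fetal liver, with no dam effect. The other steps were not tested in this way. Alternatives were DESeq2 1.42.0, limma 3.58.1 (prior count 2), RLE scaling, no filter, other sets of libraries and a replicate block.

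Members, lists and rules were chosen with earlier results of these data known. The comparisons with PFO5DoA and by life stage class were chosen after the files were seen. Named genes are the 2 largest rises and falls by the rule given with them. The 22 pathway and 10 marker lists could not be looked up, since no ID was paired with a name, and no sequence is shown for the same reason.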

Additional observations from a re-analysis of the deposited data

Results flagged for a closer look

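Of 47 groups of libraries checked, 3 held a value far from the others, where chance flags about 1 in 20 if values are independent and normally spread. Dam 2320 had 7.7% of its fetal counts in the genes that rose, against 10.2 to 10.5% in the other 3 dams at 62.5 mg/kg/d. Control dam 2308 had counts for 16184 genes in fetal liver, against 14199 to 14554 in the other 5 controls. The same library held the only control count of ENSRNOG00000017716, which gave it 0.0944 CPM against 0 in the others. A single count among zeros is always flagged by this check. The effect of 62.5 mg/kg/d differed between fetal and maternal liver, by the test of the difference, in 348 genes. Among the example genes these were ENSRNOG00000009522, ENSRNOG00000004009 and ENSRNOG00000036984. Their fetal changes minus the maternal ones were 6.97, -3.82 and -3.90 on the log2 scale. The examples were chosen on the same fetal libraries, so these sizes follow in part from the choice.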

How the results depend on the processing

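The count of 1188 changed genes was between 940 and 1245 when single libraries were left out, and DESeq2, RLE scaling, no filter on low counts, a fit of the 2 groups alone and leaving out dams 2308 and 2321 each kept it within 1.5 times. The fit of the 2 groups alone gave 1029. Without the other doses and with control dams 2308 to 2310 alone it was 699, and with control dams 2293 to 2295 alone 766. A replicate block on the numbers in the fetal titles gave 614, with 288 rises and 326 falls, in a fit that also left out the other doses and the controls whose number no 62.5 mg/kg/d library shares, so the part of the block alone was not tested. Deviations of same-numbered libraries at 62.5 and 0 mg/kg/d had mixed correlations (-0.188, -0.167, 0.16 and 0.436). Replicates 3 and 4 matched the control of their own number best, and replicates 1 and 2 matched another. So few values do not settle whether the numbers mark pairs, and the numbers are not treated as pairs. The 348 genes that differed between the livers became 679 with no filter on low counts (308 above and 371 below; 19204 genes tested), 194 without dams 2308 and 2321, and 195 to 353 with single dams left out. RLE scaling gave 360 and limma 263. The single gene called between 62.5 and 30 mg/kg/d became 2 with DESeq2 and 2 with the replicate block, and 0 to 5 genes were called with single libraries left out. The 4 example genes kept their direction and their call under all 18 alternatives run for each, at adjusted p-values of at most 0.00742. The causes of these shifts were not tested. Depth limits genes under 5 CPM most, and probes shared by related genes could not be checked without gene names.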
